A study of Rattus norvegicus with 6 samples.

Results

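The molecular clock genes Dbp, Tef, Nfil3, Nr1d1, Nr1d2, Per3, Cry1, Cry2, Bhlhe40 and Arntl were examined in injured rat sciatic nerve. These 10 genes, of 33713 in the count table, were selected on the ES and control contrast of these same libraries, in which Dbp and Nr1d1 had already been seen to be lower with stimulation. Their differences between the groups are therefore given as a description, and tests and calls among them support nothing further. Each symbol matched 1 row of the table, and all 10 genes were among the 14828 that passed the filter on low counts.

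Bulk RNA sequencing covered sciatic nerve of female Sprague-Dawley rats aged 8 weeks, collected on day 4, in an ES group of 3 libraries and a control group of 3 libraries. The nerve was retracted to a gap of about 6 mm, after which the ES nerves received electrical stimulation for 1 h at once and the control nerves none. In both groups the proximal and the distal end were then each sewn 2 mm into a 10 mm silicone tube. Rats of both groups lived in 12 h of light and 12 h of dark, and the labels give the day but no hour of collection. A difference in hour between the groups could therefore not be told apart from stimulation in these clock genes. Nothing in the labels says that each library is a different rat. Errors and p-values therefore reflect the spread between these libraries alone, which may be technical.

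The clock of a mammalian cell is a feedback loop of transcription. ARNTL, also called BMAL1, pairs with CLOCK or NPAS2 and binds E-box sequences in the genes of its own repressors, the PER and CRY proteins, and in genes such as Nr1d1 and Dbp. The nuclear receptors encoded by Nr1d1 and Nr1d2, REV-ERB alpha and beta, repress Arntl and Nfil3 through ROR elements, so transcripts driven by E-boxes and those repressed by the REV-ERBs peak at opposite times of day in many tissues. DBP and TEF activate, and NFIL3 represses, genes that carry a D-box, which makes them the output arm of the clock. Clocks of this kind run in most peripheral tissues.

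Promoter sequences are shown first, because E-boxes, ROR elements and D-boxes are the sequences through which these genes are known to be regulated. RefSeq windows of 300 bases on build GRCr8 ran from 250 bases before a start site to 50 bases after it. They were found for 9 of the 10 genes, all except Cry1, and Nr1d1 had 2 windows. The letters CACGTG (E-box), CACGTT (a variant E-box), TAGGTCA (the core of a ROR element), TTATGTAA and TTACGTAA (D-boxes) were searched on both strands, and each of the 10 windows held at most 1 match. The E-box CACGTG was present in windows of Nr1d1, Tef and Bhlhe40, and in 6.42% of all 33465 windows. CACGTT was present in the other Nr1d1 window and in that of Cry2, and in 4.83% of all windows. TAGGTCA was present in the Arntl window, listed in RefSeq under the symbol Bmal1, and in 2.63% of all windows. Neither D-box was found in the windows of these genes (0.894% and 0.120% of all windows). The windows of Dbp, Nr1d2, Nfil3 and Per3 held none of the searched letters, so no E-box for Dbp and no ROR element core for Nfil3. Such matches describe letters in a short window and are not binding sites. The windows with an E-box or a ROR element core are shown, 5′ to 3′ on the strand of the gene, with the motif in capitals.
Nr1d1, chr10:84229405-84229704, minus strand, E-box at −191 to −186 from the start site: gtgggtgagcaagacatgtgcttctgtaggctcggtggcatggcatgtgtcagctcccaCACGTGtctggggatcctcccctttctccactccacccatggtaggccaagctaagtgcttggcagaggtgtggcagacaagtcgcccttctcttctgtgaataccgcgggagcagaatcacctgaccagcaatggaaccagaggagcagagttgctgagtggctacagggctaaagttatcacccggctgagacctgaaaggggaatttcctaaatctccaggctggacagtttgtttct
Tef, chr7:115206577-115206876, plus strand, E-box at −198 to −193: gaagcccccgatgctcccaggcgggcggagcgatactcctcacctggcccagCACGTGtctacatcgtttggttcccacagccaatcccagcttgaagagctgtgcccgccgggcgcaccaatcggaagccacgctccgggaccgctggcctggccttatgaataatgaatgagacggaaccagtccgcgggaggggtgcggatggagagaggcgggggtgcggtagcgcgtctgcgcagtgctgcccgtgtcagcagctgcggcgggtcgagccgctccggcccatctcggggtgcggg
Bhlhe40, chr4:143174200-143174499, plus strand, E-box at −220 to −215: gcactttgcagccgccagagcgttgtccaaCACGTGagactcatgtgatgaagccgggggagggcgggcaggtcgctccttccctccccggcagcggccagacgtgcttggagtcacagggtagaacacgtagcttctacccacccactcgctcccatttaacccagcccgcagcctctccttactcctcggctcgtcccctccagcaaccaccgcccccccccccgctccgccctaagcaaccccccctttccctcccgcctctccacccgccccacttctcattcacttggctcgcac
Arntl, chr1:176766078-176766377, plus strand, ROR element core at −16 to −10: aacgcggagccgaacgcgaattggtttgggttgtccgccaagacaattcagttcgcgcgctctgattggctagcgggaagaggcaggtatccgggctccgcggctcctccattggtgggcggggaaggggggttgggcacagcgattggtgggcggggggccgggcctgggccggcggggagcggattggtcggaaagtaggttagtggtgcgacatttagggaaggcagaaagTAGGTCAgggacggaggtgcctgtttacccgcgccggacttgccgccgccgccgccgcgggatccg

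Library totals ran from 14962319 to 17119144 counts, and the 10 genes held 243 to 1601 counts in a library. The median log2 fold change over all tested genes was 0.00. Libraries of a group differed by more than sampling noise (chi-square per gene of 10.6 to 18.3), so none looked like a second deposit of another. Schwann cell markers, which define this tissue, were all detected, with a summed level of 11370 to 12240 CPM (counts scaled to library depth) in ES and 8894 to 11515 CPM in control. Some marker sums moved with the groups. All 10 adipocyte markers had a log2 fold change below 0, although none was called, with sums of 174 to 775 CPM in ES and 1387 to 1593 CPM in control. Sums of the 6 endothelial markers were 463 to 505 CPM in ES and 611 to 690 CPM in control. Those of the 6 smooth muscle and pericyte markers were 411 to 465 CPM in ES and 599 to 726 CPM in control. In each of these lists all 6 markers were below 0 and edgeR called 1, against 0.135% of all tested genes called lower. Fibroblast sums were 18465 to 20597 CPM in ES and 20854 to 27831 CPM in control. Most of that sum was Col1a1 and Col3a1, while Pdgfra and Dcn overlapped between the groups (log2 fold changes of 0.06 and −0.01), and 5 of the 6 fibroblast markers were below 0 with none called. Sums of the 7 macrophage markers were 865 to 1073 CPM in ES and 724 to 816 CPM in control. The part of these cell types in the results on clock genes was not tested, and in bulk tissue fewer cells of a type and less RNA per cell cannot be told apart.

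The output activators Dbp and Tef, both REV-ERB genes and Per3 had lower means in ES nerve, while Nfil3 and Arntl had higher ones. Nfil3 and Arntl are known targets of REV-ERB repression, but neither was called, and a link to the REV-ERB transcripts was not tested. The mean CPM of Dbp was 2.19-fold and that of Nr1d1 1.75-fold lower in ES. The means of Nr1d2, Per3 and Tef were 1.49-fold, 1.41-fold and 1.21-fold lower, and those of Nfil3 and Arntl 1.31-fold and 1.16-fold higher. In these 7 genes the 3 ES libraries did not overlap the 3 control libraries. Cry1, Cry2 and Bhlhe40 overlapped. All ES libraries lay below all control libraries in 5 of the 10 genes, against 8.23% of all tested genes, and above them in 2 of the 10, against 7.54% of all tested genes. The quasi-likelihood test of edgeR, adjusted by Benjamini-Hochberg over all tested genes at a threshold of 0.05, called 2 of the 10 lower, Dbp and Nr1d1, and 0 higher. It called 0.135% of all tested genes lower and 0.0337% higher. The median log2 fold change of the 10 genes was −0.24. Because the contrast chose the genes, nothing is read from these shares. The calls of Dbp and Nr1d1 were both lost without control 1, without control 3, with limma on log2 FPKM and with an adipocyte covariate, and that of Dbp also without ES 2 or without ES 3. Over these and the other alternatives their log2 fold changes ran from −1.48 to −1.01 for Dbp and from −0.88 to −0.72 for Nr1d1.

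**Figure D1:**
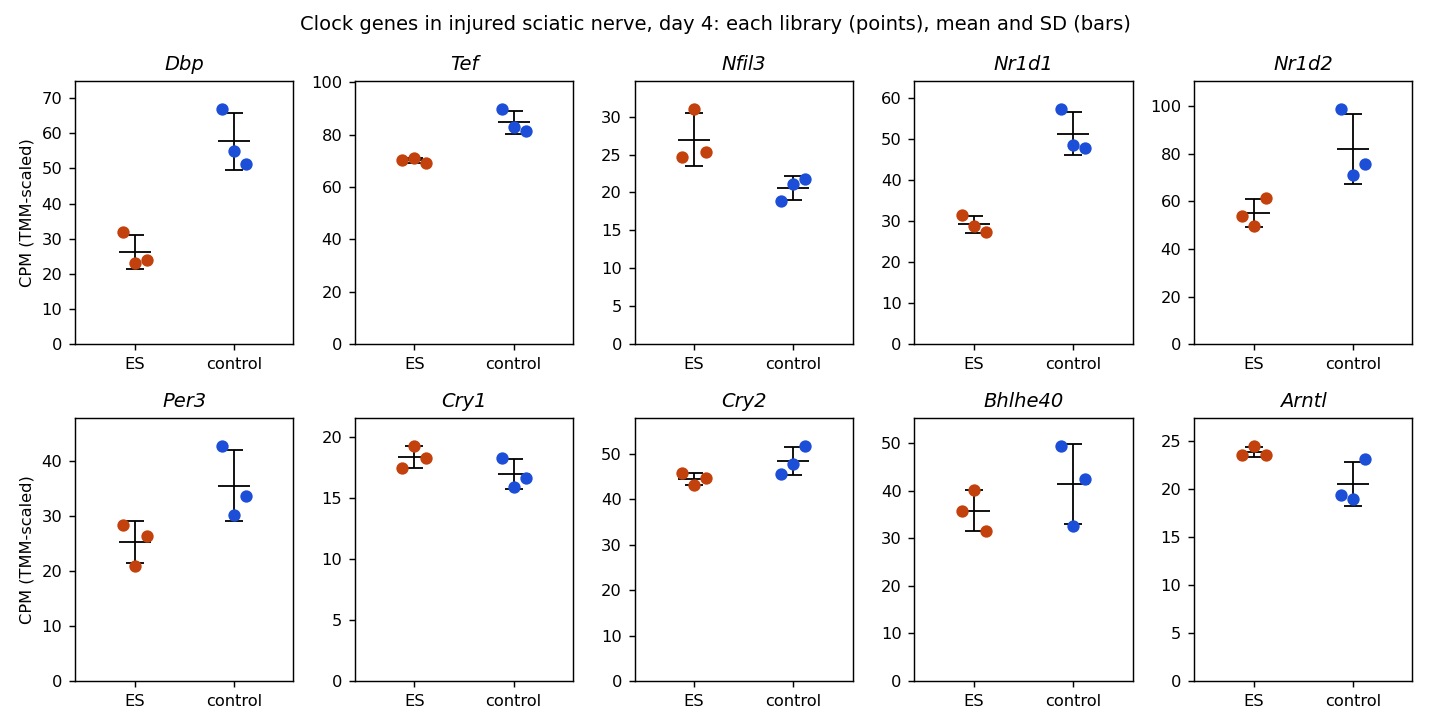
TMM-scaled CPM (y axis, from 0) of each clock gene in the 3 ES and the 3 control libraries (points), with the group mean and SD (bars). Dbp and Nr1d1 show the widest gaps, with ES libraries at 23.2 to 31.8 and 27.3 to 31.5 CPM, while the Cry1, Cry2 and Bhlhe40 groups overlap.

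Among the output activators, Dbp (ENSRNOG00000021027, chromosome 1, 101687855 to 101692846, plus strand), the D-box binding PAR bZIP factor, had 31.8, 23.2 and 23.8 CPM in ES 1 to 3, against 66.8, 54.9 and 51.3 CPM in control 1 to 3. The lowest control library was 1.62-fold above the highest ES library. The log2 fold change of ES over control was −1.13 ± 0.14 (SE, n = 3 each), with a mean of 26.3 ± 4.78 CPM in ES and 57.7 ± 8.12 CPM in control (SD). Counts behind these values were 536, 387 and 363 in ES and 1084, 837 and 799 in control. Within the ES group Dbp was highest in ES 1, the library with the smallest adipocyte sum (174 CPM), and in the control group it was highest in control 1, the one with the largest (1593 CPM). Gene coordinates here and for the following genes are those of the deposited table, whose build could not be settled, and are not comparable with the GRCr8 windows.

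Tef (ENSRNOG00000019383, chromosome 7, 123043503 to 123058604, plus strand), a PAR bZIP factor related to DBP, differed less, with little spread. It had 70.2, 71.0 and 69.2 CPM in ES, against 89.7, 82.8 and 81.4 CPM in control. The 3 ES libraries lay close together (SD 0.884 CPM) and all below control, and the log2 fold change was −0.27 ± 0.07 (SE). Hlf, the third PAR bZIP gene, was scarce, with 9, 17 and 15 counts in ES and 26, 23 and 17 counts in control (0.846 ± 0.271 CPM in ES, 1.40 ± 0.272 CPM in control). Its log2 fold change was −0.73 ± 0.39 (SE), which edgeR did not call (adjusted p = 0.577).

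The output repressor Nfil3 (ENSRNOG00000011668, chromosome 17, 12261102 to 12276315, plus strand), also known as E4BP4, had a higher mean in ES. Its level was 24.7, 31.0 and 25.3 CPM in ES, against 18.9, 21.2 and 21.8 CPM in control. ES 2, which also had the highest erythrocyte and neutrophil marker sums, was the highest library. The lowest ES library was 1.13-fold above the highest control. The log2 fold change was 0.39 ± 0.12 (SE), or 0.28 without ES 2, and edgeR did not call the gene. Since DBP and NFIL3 are known to compete for D-boxes, their transcripts were also compared within each library. The difference Dbp minus Nfil3 in log2 CPM was 0.37, −0.42 and −0.08 in ES 1 to 3, against 1.82, 1.37 and 1.23 in control 1 to 3. The groups were separated by 0.87 at their nearest libraries, and the means were −0.05 ± 0.39 in ES and 1.48 ± 0.31 in control (SD, n = 3 each). Because Dbp was lower and Nfil3 higher in every ES library, the difference had to separate the groups and is only a description.

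**Figure D2:**
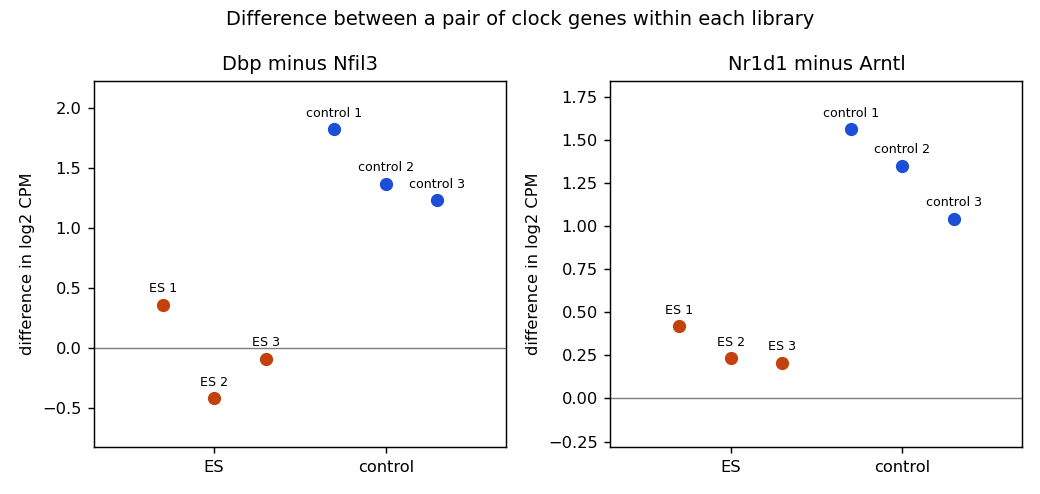
Difference in log2 CPM (y axis) of Dbp minus Nfil3 (left) and Nr1d1 minus Arntl (right) in each ES and control library (labelled points). In ES the differences lie between −0.42 and 0.42, and in control between 1.04 and 1.82. The genes of each pair separate the groups in opposite directions, so their differences had to separate them too.

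Of the loop repressors, Nr1d1 (ENSRNOG00000009329, chromosome 10, 86683875 to 86690815, minus strand), which encodes REV-ERB alpha, had 31.5, 28.8 and 27.3 CPM in ES, against 57.2, 48.6 and 47.8 CPM in control. All ES libraries were lower, with a factor of 1.52 between the nearest libraries of the groups, and the log2 fold change was −0.81 ± 0.10 (SE). The gene shares 1059 bases with Thra, a thyroid hormone receptor gene on the opposite strand, and whether the counting used strand is not given in the sources used here. Thra itself was at 69.3 ± 5.91 CPM in ES and 71.3 ± 3.68 CPM in control (log2 fold change −0.04 ± 0.08, SE). No other gene of the table overlapped any of the 10.

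Nr1d2 (ENSRNOG00000046912, chromosome 15, 8730871 to 8757165, plus strand), which encodes REV-ERB beta, showed more spread within the groups. It had 53.9, 49.7 and 61.2 CPM in ES, against 98.7, 71.1 and 75.8 CPM in control. Control 1 stood above the other libraries, and the nearest libraries of the groups differed 1.16-fold. The log2 fold change was −0.58 ± 0.13 (SE). The quasi-likelihood test did not call Nr1d2, and DESeq2 did, as lower, a call it made for 1.37% of the genes to which it gave an adjusted p.

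Arntl (ENSRNOG00000014448, chromosome 1, 178039063 to 178137465, plus strand), the activator of the loop and a known target of REV-ERB repression, had 23.5, 24.5 and 23.6 CPM in ES, against 19.4, 19.0 and 23.2 CPM in control. The groups did not overlap, but control 3 lay 1.015-fold below the lowest ES library. The log2 fold change was 0.22 ± 0.11 (SE), with a 95% interval of −0.02 to 0.46. The difference Nr1d1 minus Arntl in log2 CPM was 0.42, 0.23 and 0.21 in ES 1 to 3, against 1.56, 1.35 and 1.04 in control 1 to 3. Each ES library lay below every control library in this difference. That follows from Nr1d1 being lower and Arntl higher in every ES library, and adds nothing to it.

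The period and cryptochrome proteins repress the CLOCK and ARNTL complex. Per3 (ENSRNOG00000018413, chromosome 5, 168086998 to 168123395, minus strand) had 28.4, 21.0 and 26.5 CPM in ES, against 42.8, 30.2 and 33.7 CPM in control. The groups were separated by a factor of 1.06 at their nearest libraries, and the log2 fold change was −0.49 ± 0.15 (SE). Without control 1, the highest library, it was −0.33. Of the other period genes, which are not among the 10, Per1 had 20.0, 33.4 and 22.9 CPM in ES, against 20.8, 17.6 and 19.5 CPM in control, with ES 2 the highest (log2 fold change 0.40 ± 0.18, SE; edgeR adjusted p = 0.514). Per2 was at 19.4 ± 2.19 CPM in ES and 20.5 ± 1.83 CPM in control (log2 fold change −0.08 ± 0.12, SE; edgeR adjusted p = 0.869).

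Both cryptochrome genes overlapped between the groups. Cry1 (ENSRNOG00000006622, chromosome 7, 24534615 to 24634097, plus strand) had 17.5, 19.3 and 18.3 CPM in ES, against 18.3, 15.9 and 16.7 CPM in control. Its log2 fold change was 0.11 ± 0.11 (SE), with a 95% interval of −0.13 to 0.36, and it was 0.18 without control 1 and 0.07 without control 2. Cry2 (ENSRNOG00000007478, chromosome 3, 81314149 to 81344110, minus strand) had 45.8, 43.1 and 44.6 CPM in ES, against 45.6, 47.8 and 51.8 CPM in control. Its log2 fold change was −0.12 ± 0.08 (SE), with a 95% interval of −0.30 to 0.06, and it was −0.07 without control 3. These intervals describe the spread between these libraries alone, and do not show that the cryptochrome genes were equal in both groups.

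Bhlhe40 (ENSRNOG00000007152, chromosome 4, 140703619 to 140709319, plus strand), which encodes the E-box binding repressor DEC1, had the largest SD of log2 CPM within groups of the 10, 0.249, just above the 0.244 of Per3. It had 35.9, 40.2 and 31.5 CPM in ES, against 49.5, 32.6 and 42.4 CPM in control. The log2 fold change was −0.21 ± 0.15 (SE), with a 95% interval of −0.56 to 0.14. It was −0.06 without control 1, −0.36 without control 2 and −0.13 without ES 3. Its paralogue Bhlhe41, which encodes DEC2, was at 29.6 ± 4.09 CPM in ES and 27.7 ± 1.59 CPM in control (log2 fold change 0.10 ± 0.12, SE; edgeR adjusted p = 0.831).

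Per gene length, in the FPKM values (fragments per kilobase of gene length and library depth) that the authors deposited, the order of the 10 genes differed between the groups. In ES the highest mean level was that of Tef (16.8 ± 0.201 FPKM), followed by Dbp (15.4 ± 2.79), Bhlhe40 (15.1 ± 1.81) and Nfil3 (13.7 ± 1.77), with Nr1d2, Nr1d1 and Cry2 between 11.2 and 11.9 FPKM. Neighbours in this order overlapped in their libraries down to Cry2. Arntl (8.02 ± 0.182), Cry1 (6.27 ± 0.310) and Per3 (3.91 ± 0.598 FPKM) followed without overlap. In control Dbp stood alone at the top (33.7 ± 4.78 FPKM). Tef, Nr1d1, Nr1d2 and Bhlhe40 lay at 20.2, 20.0, 17.7 and 17.4 FPKM, each overlapping the next. Cry2, Nfil3, Arntl and Cry1 followed at 12.1, 10.5, 6.87 and 5.78 FPKM without overlap, and Per3 (5.48 ± 1.00 FPKM) overlapped Cry1. Nfil3 was thus above Nr1d1 and Cry2 in ES and below them in control. The same genes separated the groups in FPKM as in CPM.

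**Figure D3:**
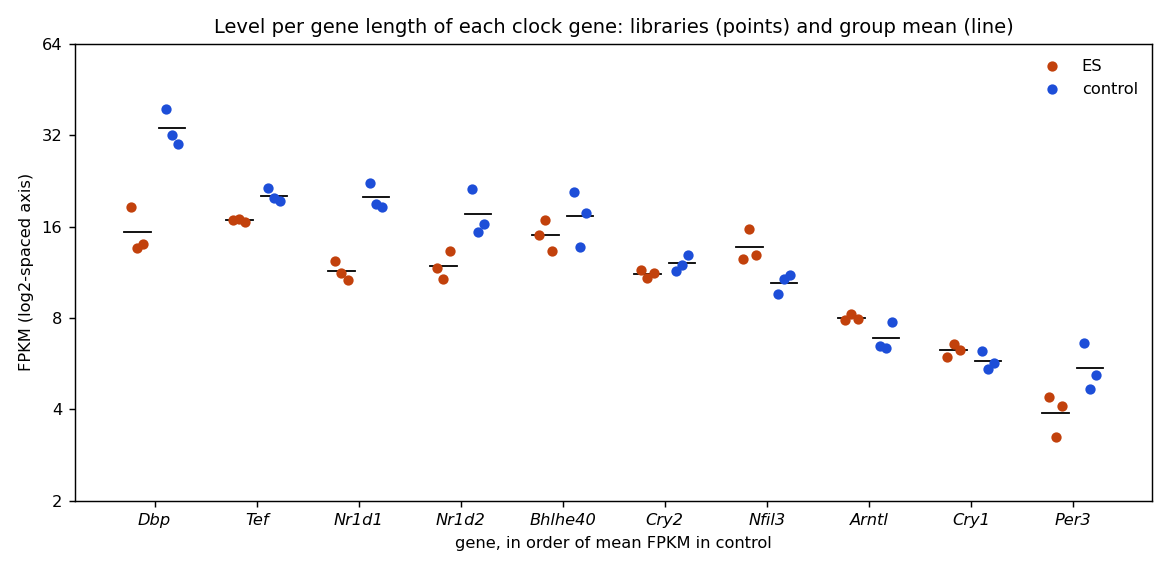
FPKM (y axis, spaced by powers of 2) of the 10 clock genes in the 3 ES and the 3 control libraries (points) with group means (lines), in order of the control mean. Dbp is at 13.6 to 18.6 FPKM in ES and 29.9 to 39.1 FPKM in control, and Per3 is the lowest of the 10 in both groups by its mean.

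The wider clock pathway was described with 32 other genes in 3 lists, all in the table and 30 of them tested. The quasi-likelihood test of edgeR called 0 of the 30. At an unadjusted p under 0.05 it gave 1 of the 30 higher, Cdkn1a, and 0 lower, against 4.01% higher and 5.94% lower over all tested genes. DESeq2 called 1 higher, also Cdkn1a, against 0.651% of the genes to which it gave an adjusted p. The median log2 fold change of the 30 genes was 0.03, against 0.00 over all tested genes. All 3 ES libraries lay above control in 3 of the 30 genes, against 7.54% of all tested genes, and below it in 1, against 8.23%.

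Core loop genes beyond the 10 numbered 12, of which 10 were tested and 4 had a log2 fold change above 0 (median −0.05). Clock, the partner of ARNTL, was at 79.4 ± 7.01 CPM in ES and 80.3 ± 5.96 CPM in control (log2 fold change −0.02 ± 0.09, SE; edgeR adjusted p = 0.966). Npas2, the alternative partner, was at 40.2 ± 2.08 CPM in ES and 36.8 ± 4.43 CPM in control (log2 fold change 0.13 ± 0.10, SE; edgeR adjusted p = 0.733). Ciart, which encodes a repressor of the loop, was scarce, at 1.76 ± 0.739 CPM in ES and 2.54 ± 0.364 CPM in control (log2 fold change −0.53 ± 0.35, SE; edgeR adjusted p = 0.670). Rora, which encodes an activator that opposes the REV-ERBs at ROR elements, was at 2.78 ± 0.942 CPM in ES and 2.72 ± 0.198 CPM in control. Rorb, a related gene, held 1, 4 and 0 counts in ES and 0 in each control library.

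Of the 10 clock kinases and degradation factors, 8 had a log2 fold change above 0 and the median was 0.02. Csnk1d, casein kinase 1 delta, which phosphorylates PER proteins, was at 179.6 ± 6.06 CPM in ES and 167 ± 8.36 CPM in control, with no overlap (log2 fold change 0.11 ± 0.07, SE; edgeR adjusted p = 0.674). Csnk1e, Csnk2a1 and Fbxw11 had log2 fold changes of 0.09, −0.08 and 0.05, and edgeR adjusted p-values of 0.775 to 0.856. The third list held 10 genes outside the loop that are rhythmic in other tissues (median log2 fold change 0.08). Cdkn1a, a cyclin-dependent kinase inhibitor, had 51.7, 33.1 and 28.2 CPM in ES, against 18.6, 20.3 and 21.3 CPM in control (log2 fold change 0.91 ± 0.22, SE; edgeR adjusted p = 0.218). Usp2, a deubiquitinase, was at 6.37 ± 0.551 CPM in ES and 5.36 ± 0.301 CPM in control (log2 fold change 0.25 ± 0.18, SE; edgeR adjusted p = 0.699). Single libraries set the values of the next genes of this list by p. Tsc22d3, a glucocorticoid-induced gene, was at 147 CPM in ES 2 and 51.3 to 69.1 CPM elsewhere, and Tspan4, a tetraspanin gene, at 29.3 CPM in control 1 and 2.96 to 11.1 CPM elsewhere.

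**Figure D4:**
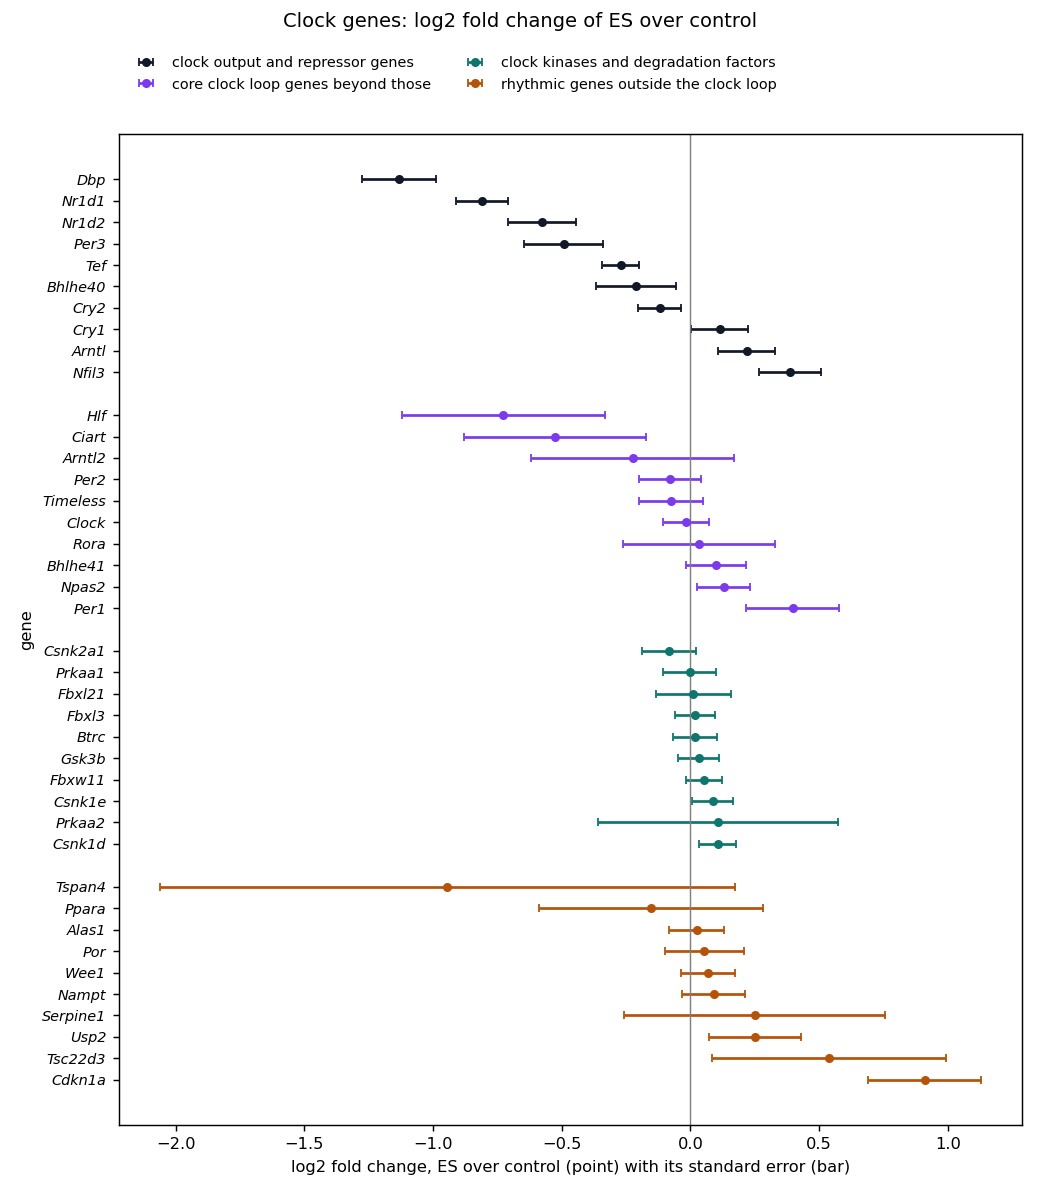
Log2 fold change of ES over control (x axis; points) with its standard error (bars) for the 10 clock output and repressor genes and for the 30 tested genes of the 3 other clock lists. Dbp (−1.13) and Nr1d1 (−0.81) lie farthest to the left among the 10, while the kinases and degradation factors lie between −0.08 and 0.11.

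The genes most like Dbp and Nr1d1 were ranked by Pearson's r of log2 CPM over the 6 libraries, among 13652 other named genes at a mean of 1 CPM or more. With so few libraries and both groups included, any gene that separates the groups scores high, so r is given as a description. Most like Dbp were Ano10, Runx1t1, Ttc28, Mccc2 and Rasl12 (r of 0.979 to 0.990), and most like Nr1d1 were Dysf, Rasl12, Letmd1, Syt15 and Ano10 (r of 0.982 to 0.989). Ano10 and Rasl12 were thus in both lists. Ano10 was at 97.1 CPM in ES and 107 CPM in control, Rasl12 at 8.59 CPM in ES and 14.1 CPM in control, and of these 8 genes only Syt15 was called by edgeR (log2 fold change −1.39).

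Within the groups, the libraries did not deviate alike in all 10 genes. In control, control 1 was the highest library in 7 of the 10. After group means were subtracted, the deviations of Dbp and Nr1d1 had a Pearson r of 0.904 and a Spearman rho of 0.543 over the 6 libraries, which share 2 group means. Without ES 1 and control 1, the libraries farthest from the median, r was −0.283, so this likeness rests on those libraries. Nfil3 and Per3 deviated in opposite directions, with an r of −0.904 and a rho of −0.943, and r was −0.979 without ES 2 and control 3. These 2 pairs were taken from 45 after their values were seen.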

How the data were processed

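The authors deposited whole-number read counts per gene, 1 column per library, and FPKM values of the same libraries with gene length; the groups and replicate numbers come from the sample titles. Per the labels' protocols, TRIzol was used for RNA and a NEBNext Ultra kit for libraries. No aligner or counting tool, nor whether strand was used, is given in the sources used. Of builds, rn7 is named in the submitters' processing notes, but 6890 genes of the tables carry AABR07 clone names and chromosome 1 reaches position 282724300, which resembles an earlier rat build. Gene coordinates are therefore printed as deposited, with their build not settled; promoter windows are RefSeq's on GRCr8. The deposited FPKM values imply depths −2.30% to 1.83% from the count totals.

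Groups were compared by quasi-likelihood in edgeR 4.0.16 under R 4.3.3 over all 6 libraries (filterByExpr, TMM, robust, two-sided, Benjamini-Hochberg over all tested genes, called under 0.05). Standard errors are the absolute log2 fold change over the square root of F. CPM values are scaled by TMM factors, and log2 CPM uses a prior count of 0.5. The script was tested on simulated data. DESeq2 1.42.0, limma 3.58.1 on log2 FPKM, other scalings, no filter, a replicate block, an adipocyte covariate and leaving out each library were alternatives; the count of the 10 called under each was added after seeing the data. Members, lists and the naming rule were chosen with earlier results of these data known. The rule names all 10 members, the 4 lowest p per pathway list, called list genes and the 5 genes most like Dbp, the 5 most like Nr1d1 and the 5 most like Dbp by deviations; Per2, Clock, Rora, Rorb, Bhlhe41 and Thra were named beyond it, after their values were seen.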

Additional observations from a re-analysis of the deposited data

How the results depend on the processing

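The direction of the log2 fold change was kept in all 14 alternatives for 9 of the 10 clock genes. Bhlhe40 was 0.00 with the adipocyte covariate and below 0 in the other 13. For genes without overlap between the groups, leaving out a library or scaling otherwise could hardly reverse it. The genes were also chosen on this contrast, so the kept direction is only a description. Ranges over the alternatives were −1.48 to −1.01 for Dbp, −0.88 to −0.72 for Nr1d1, −0.67 to −0.41 for Nr1d2, −0.79 to −0.33 for Per3, −0.30 to −0.22 for Tef, 0.28 to 0.63 for Nfil3, 0.17 to 0.32 for Arntl, 0.07 to 0.26 for Cry1, −0.21 to −0.07 for Cry2 and −0.36 to 0.00 for Bhlhe40. Of 140 values, 135 moved by less than the spread within groups. Leaving out 1 of 3 libraries can hardly move a value by more than that spread. The other scalings fit the same counts again, so little is read from the 135. The other 5 moved away from 0, with the adipocyte covariate: Dbp to −1.48, Nfil3 to 0.63, Per3 to −0.79, Cry1 to 0.26 and Cry2 to −0.21. That covariate did not overlap between the groups (2.27 to 5.13 in ES, 6.04 to 6.52 in control, mean log2 CPM), so its fit cannot tell it apart from stimulation. The calls depended more on the setting than the values did. The count of the 10 genes called, 2 in the main test, was 3 by DESeq2 (with Nr1d2), 0 by limma on log2 FPKM with a pseudocount of 1 or 0.1, 0 with the adipocyte covariate (18 calls over all genes, 17 higher and 1 lower, against 5 higher and 20 lower in the main test) and 0 to 2 when 1 library was left out: 0 without control 1 or control 3, and 1, Nr1d1, without ES 2 or ES 3. Calls over all genes, 25 in the main test, numbered 132 without a filter, 308 by DESeq2, 11 with the replicate block (Dbp and Nr1d1 among them; same-numbered libraries did not deviate together, with r of −0.112, −0.112 and −0.037), 3 and 2 by limma with pseudocounts of 1 and 0.1, and 2 to 152 when 1 library was left out (152 without control 2, 5 without control 1, 2 without control 3, 41 without ES 3). The count of other clock genes called, 0, was 1 by DESeq2 (Cdkn1a), 1 with the adipocyte covariate (Tsc22d3) and 0 in every fit without 1 library. Limited to the 250 bases before the start, E-box windows were 5.59%, CACGTT windows 4.07% and TAGGTCA windows 2.26% of all, and the same genes held each motif. The cause of these differences was not tested.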

Other observations

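Mitochondrial genes took 4.49% to 4.52% of the counts in ES and 4.21% to 5.35% in control, and ribosomal protein genes 2.76% to 2.95% in ES and 2.59% to 2.83% in control. Blood markers stood apart in ES 2, where the erythrocyte sum was 1964 CPM, against 113 and 158 CPM in the other ES libraries and 124 to 252 CPM in control. The neutrophil sum was 161 CPM in ES 2 and at most 21.0 CPM elsewhere. Markers of skeletal muscle, a tissue with a strong clock of its own, were near 0, at a summed 4.21 to 6.44 CPM in ES and 6.87 to 7.08 CPM in control. Perineurial sums were 778 to 1025 CPM in ES and 861 to 926 CPM in control, and lymphocyte sums 2.07 to 3.22 CPM in ES and 2.16 to 2.50 CPM in control. By their deviations from the group means, the genes most like Dbp were Utp15, Ncstn, Rbm20, Zbtb45 and Tmem120b (Pearson r of 0.989 to 0.999 over the 6 libraries); their log2 fold changes lay between −0.24 and 0.07.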
